A study of Mus musculus with 2 samples.

Results

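Splice junctions that join a pair of already annotated splice sites in a combination that no annotated transcript holds were examined in adult mouse urinary bladder. A junction was taken when it had at least 10 reads, when its first and last intron bases were both intron ends of transcripts in the deposited mm9 gene models, and when the intron itself was not annotated. The rule found 4904 junctions among the 187590 junctions of at least 10 reads (2.61%). The others were 151845 annotated introns, 16440 junctions with 1 known end and 14401 with none. The members were thus chosen by their read counts, which are given as a description and carry no test.

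The study measured polyadenylated RNA longer than 200 nucleotides from whole bladder of C57BL/6J mice aged 8 weeks, taken from littermates of both sexes. There was 1 group, with no treatment, no altered allele and no control, and it held 2 stranded paired-end libraries from separate biosamples. The labels give both the same donor entry, so the spread between them may be partly technical, and in whole tissue fewer cells of a type and less RNA per cell cannot be told apart. Junction reads were listed per library as R1 (53589498 reads) and R2 (60510166 reads), which no label ties to a replicate number, and gene counts were 99367453 in replicate 1 and 105057347 in replicate 2.

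Splicing removes introns and joins exons, and the spliceosome chooses for every 5′ splice site, or donor, a 3′ splice site, or acceptor, further along the transcript. When the acceptor of the next exon is passed over, that exon is skipped, and the protein keeps its reading frame only where the skipped length is a multiple of 3. Very short exons are often included in neurons under the regulator SRRM4 and left out elsewhere, and muscle has its own set of alternative exons.

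The sequences of coding exons, most of them short, that bladder junctions passed over are shown first, because their length and place are what the results below turn on. Each line gives the exon in capitals between 15 bases of the exon before it and 15 bases of the exon after it, 5′ to 3′, as spliced in transcript sequences of the later GENCODE M21 annotation that have the same structure as the mm9 models. The first 6 exons were left out by 96% or more of the reads at their splice sites in each library.
Cacna2d3: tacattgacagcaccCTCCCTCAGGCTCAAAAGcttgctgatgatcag
Erc1: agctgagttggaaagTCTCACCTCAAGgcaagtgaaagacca
Dock4: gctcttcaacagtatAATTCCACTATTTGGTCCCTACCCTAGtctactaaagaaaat
Prdm10: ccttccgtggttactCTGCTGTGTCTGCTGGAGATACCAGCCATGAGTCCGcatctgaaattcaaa
Tacc2: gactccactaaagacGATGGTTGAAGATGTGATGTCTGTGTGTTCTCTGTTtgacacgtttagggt
Papss2: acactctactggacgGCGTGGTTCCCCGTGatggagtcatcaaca
The next 6 were included by some reads and skipped by others.
Ocrl: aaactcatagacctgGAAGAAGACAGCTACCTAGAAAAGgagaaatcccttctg
Rapgef2: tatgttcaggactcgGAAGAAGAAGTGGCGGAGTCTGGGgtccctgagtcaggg
Suco: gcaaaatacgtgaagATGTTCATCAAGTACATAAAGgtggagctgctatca
Robo1: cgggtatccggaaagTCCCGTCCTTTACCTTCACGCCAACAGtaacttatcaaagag
Camk2g: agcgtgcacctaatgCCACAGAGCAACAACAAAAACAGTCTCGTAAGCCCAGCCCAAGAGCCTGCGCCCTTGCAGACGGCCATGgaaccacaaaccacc
Ptbp2: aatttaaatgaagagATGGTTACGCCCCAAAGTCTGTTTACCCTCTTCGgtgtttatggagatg
All of these lengths are multiples of 3 apart from the 34 bases of Ptbp2.

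The new pairings together held 557768 reads, which was 0.489% of all junction reads, against 96.2% on annotated introns. Their median was 23 reads and the median of annotated introns was 222 reads. At the threshold, 356 new pairings had exactly 10 reads and 402 had 9 reads, which were 7.66% and 7.55% of all junctions with those counts. Both libraries held reads of 4855 of the 4904 junctions, and the strand of all 4904 matched the strand of both splice sites. Each junction also carried a deposited score, read here as a reproducibility value from its place in the format. The rule did not use this value. It was at most 0.1 for 99.4% of the new pairings, 99.96% of annotated introns and 99.2% of junctions with 1 known end. Between 10 and 49 reads, the same value was met by 99.2% of new pairings, 99.8% of annotated introns and 93.4% of junctions with no known end.

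Exon skipping within a transcript was the most frequent kind of new pairing, and joins between different genes held most of the reads. A total of 3002 junctions (61.2%) in 2289 genes ran between exons of 1 annotated transcript and passed over at least 1 of its exons, and these held 132731 reads (23.8% of the reads on new pairings). A further 173 passed over an exon but took their ends from different transcripts of a gene, and 180 lay within a gene without a whole exon inside. The other 1549 (31.6%) joined splice sites of different genes and held 405855 reads (72.8%). Transcript models that the authors assembled from the reads held 8.69% of the skipping introns and 0.516% of the joins between genes.

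**Figure D1:**
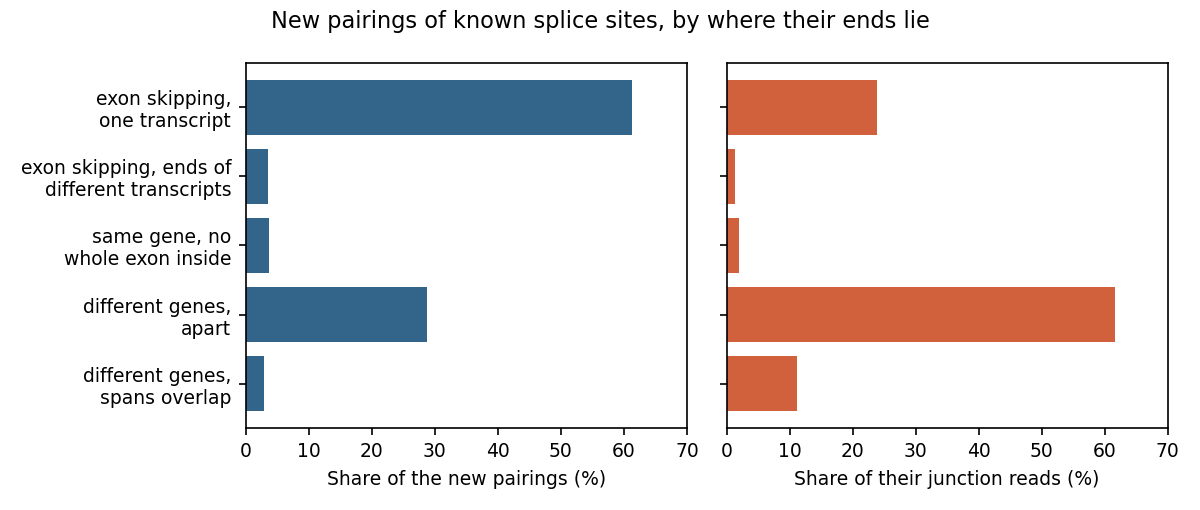
Share of the 4904 new pairings (left, percent) and of their 557768 junction reads (right, percent) by where the ends lie, both libraries together. Skipping within a transcript makes up 61.2% of the junctions and 23.8% of the reads, while joins between genes that lie apart make up 28.7% of the junctions and 61.6% of the reads.

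To set each skip against the annotated introns it replaces, its reads were divided by its reads plus those of annotated introns inside its span that share the donor, and likewise for the acceptor, and the mean of both ends is called the skipping share. The median skipping share of the 3002 skips was 5.12%, with quartiles of 1.95% and 16.8%. It was 50% or more for 332 of them (11.1%) and below 5% for 1484 (49.4%). Introns that skip an exon of another transcript and are themselves annotated had a median share of 76.9%, and 62.9% of the 5554 reached 50%. Of the 332 skips at or above 50%, 290 were so in each library taken alone, and 129 had at least 50 reads. For 31 skips the annotated introns they replace had no read at either end, and 10 of these skips had at least 50 reads.

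The shares were close between the libraries for most of the well-read skips. Among the 523 skips of at least 50 reads the median absolute difference between R1 and R2 was 2.13 percentage points, and the median share was 17.5% in R1 and 17.6% in R2. The libraries differed by 10 points or more for 62 skips (11.9%), and by 44.8 points at most. R1 was the higher for 253 and R2 for 260.

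**Figure D2:**
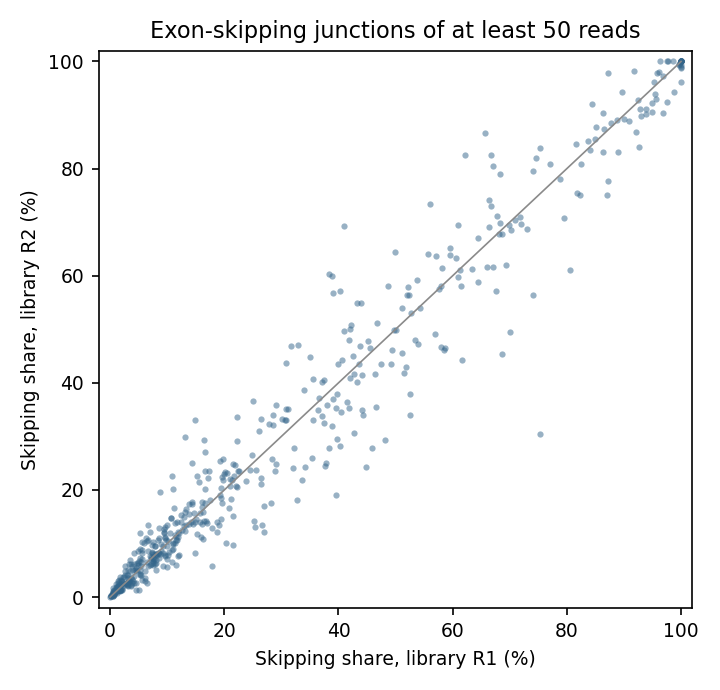
Skipping share in library R1 (x, percent) against library R2 (y, percent) for the 523 exon-skipping junctions of at least 50 reads, 1 point a junction, with the line of equal shares. Most points lie near the line, with a median absolute difference of 2.13 points, and 62 lie 10 points or more away from it.

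Serpinh1, the endoplasmic reticulum chaperone of collagen, carried the skip with the most reads. Its junction at chr7:106497975-106501562 (mm9) ran from exon 1 to exon 3 of a 6-exon transcript and had 5193 reads in R1 and 4031 in R2. The annotated introns into and out of the 44-base exon between them had 394 reads at the donor and 689 at the acceptor. Its skipping share was 95.7% in R1 and 93.0% in R2, so the annotated form was the minor one in both libraries. The exact Clopper-Pearson 95% intervals, which here and below cover counting error only, were 95.5% to 96.3% at the donor and 92.5% to 93.5% at the acceptor. The gene stood at 322 ± 14.6 TPM (SD, n = 2).

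App, the amyloid precursor protein, had the next most, with 1097 reads in R1 and 1094 in R2 on a junction from exon 7 to exon 9 at chr16:85030611-85043820. The skipped exon is 57 bases long, and the share was 30.1% in R1 and 33.3% in R2. Most reads at both ends therefore kept the exon, with 4703 at the donor and 4791 at the acceptor.

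Tns1, which encodes the adhesion protein tensin 1, passed over a 39-base coding exon at chr1:73974685-73982905 with 970 reads in R1 and 514 in R2. The libraries differed in reads more than in share, which was 88.7% in R1 and 89.0% in R2. Host gene level also differed between replicates, at 215 ± 99.5 TPM (SD, n = 2). The acceptor had 560 reads on all its other junctions, of which 185 came from inside the span.

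Ppp1r12a, the targeting subunit of myosin phosphatase, held a pair of neighbouring skips. The larger, at chr10:107689981-107696811, left out a 171-base coding exon with 670 reads in R1 and 536 in R2, a share of 25.5% and 23.8%. The other, at chr10:107689001-107690380, left out the 168-base exon just before it with 104 and 96 reads and a share of 3.19% and 3.48%. Both lengths are multiples of 3, and both skips lie in later transcripts of the gene.

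Csrp1, a LIM-domain protein of smooth muscle, shows how many reads a small share can hold in an abundant gene. Its skip of a 113-base exon had 348 reads in R1 and 601 in R2, but its annotated introns had 64667 reads at the donor and 117657 at the acceptor, and the share was 0.882% and 1.34%. The gene stood at 3236 ± 475 TPM (SD, n = 2).

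Tacc2 and Stum lay at the other end. Tacc2, a centrosomal coiled-coil protein, left out the 36-base exon printed above with 475 reads in R1 and 429 in R2, while 1 read at the donor and 3 at the acceptor used the annotated introns. Stum, the mouse homolog of a fly mechanosensation gene, left out a 9-base coding exon with 389 and 499 reads and no read on either annotated intron. The exact lower 95% bound of its share was 99.6% at each end. Both skips are in later transcripts of their genes and in the authors' assembled models.

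Mbnl1, a muscleblind splicing regulator, had a pair of junctions that skip the same 36-base exon from the donor at position 60419696 of chromosome 3 to different acceptors. The share of each leaves out the reads of the other. The first, ending at 60429045, had 491 reads in R1 and 367 in R2, with a share of 56.9% and 49.1%. The second, ending at 60426067, had 201 and 165 reads, with a share of 53.4% and 48.0%. In each case R1 was the higher.

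Rbpms, an RNA-binding protein of smooth muscle, passed over a 134-base exon with 387 reads in R1 and 324 in R2. Its ends disagreed, with a share of 9.39% at the donor and 29.97% at the acceptor. Ndufa6, a subunit of respiratory complex I, left out the second of 3 exons, 116 bases long, with 232 and 335 reads and a share of 6.69% and 8.63%. Fopnl, a centrosomal protein, passed over 2 exons of 283 bases in all with 229 and 325 reads and a share of 51.1% and 45.6%. None of these 3 lengths is a multiple of 3.

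Bin1, which bends membranes and has a muscle form, passed over a 72-base exon at chr18:32584622-32591636 with 235 reads in R1 and 275 in R2. Its share was 31.2% in R1 and 35.1% in R2. Meg3, a maternally expressed non-coding RNA, skipped a 113-base exon with 242 and 639 reads. Although R2 had the more reads, the shares were near each other, at 24.8% and 26.6%, and the gene stood at 685 ± 311 TPM (SD, n = 2).

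The skips with the highest share among those of at least 50 reads were 10 junctions without a single read on the annotated introns they replace, and 8 of them passed over exons of 36 bases or fewer in all. Stum was described above. Ppfia1, a liprin scaffold protein, had 169 reads in R1 and 233 in R2 across a 30-base exon. Cacna2d3, an auxiliary subunit of voltage-gated calcium channels, had 75 and 91 reads across an 18-base exon at chr14:29918212-29983689. Erc1, a scaffold of secretory sites, had 78 reads in each library across a 12-base exon at chr6:119672327-119693305.

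Asap1, an Arf GTPase-activating protein, had 73 and 88 reads across a 9-base exon. Prdm10, a zinc-finger protein, had 41 and 57 reads across a 36-base exon at chr9:31170085-31178408. Dock4, an exchange factor for small GTPases, had 48 and 28 reads across a 27-base exon at chr12:41516749-41521354. The lower 95% bounds of these shares ran from 95.3% in Dock4 to 99.6% in Stum.

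The remaining 3 passed over longer stretches or more exons. Plch2, a phospholipase C, had 29 and 61 reads across 2 exons of 24 bases together. Daam2, a formin that builds actin filaments, had 62 and 54 reads across a 144-base coding exon. Evl, of the Ena/VASP family, had 72 and 111 reads from exon 1 to exon 3, across 136 bases. Other junctions that are not inside the span also met some of these ends, with 298 reads at the Asap1 acceptor, 282 at the Evl acceptor and 219 at the Plch2 acceptor. Counting them takes the share from 100% to 67.2% in Asap1, 69.7% in Evl and 64.6% in Plch2.

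**Figure D3:**
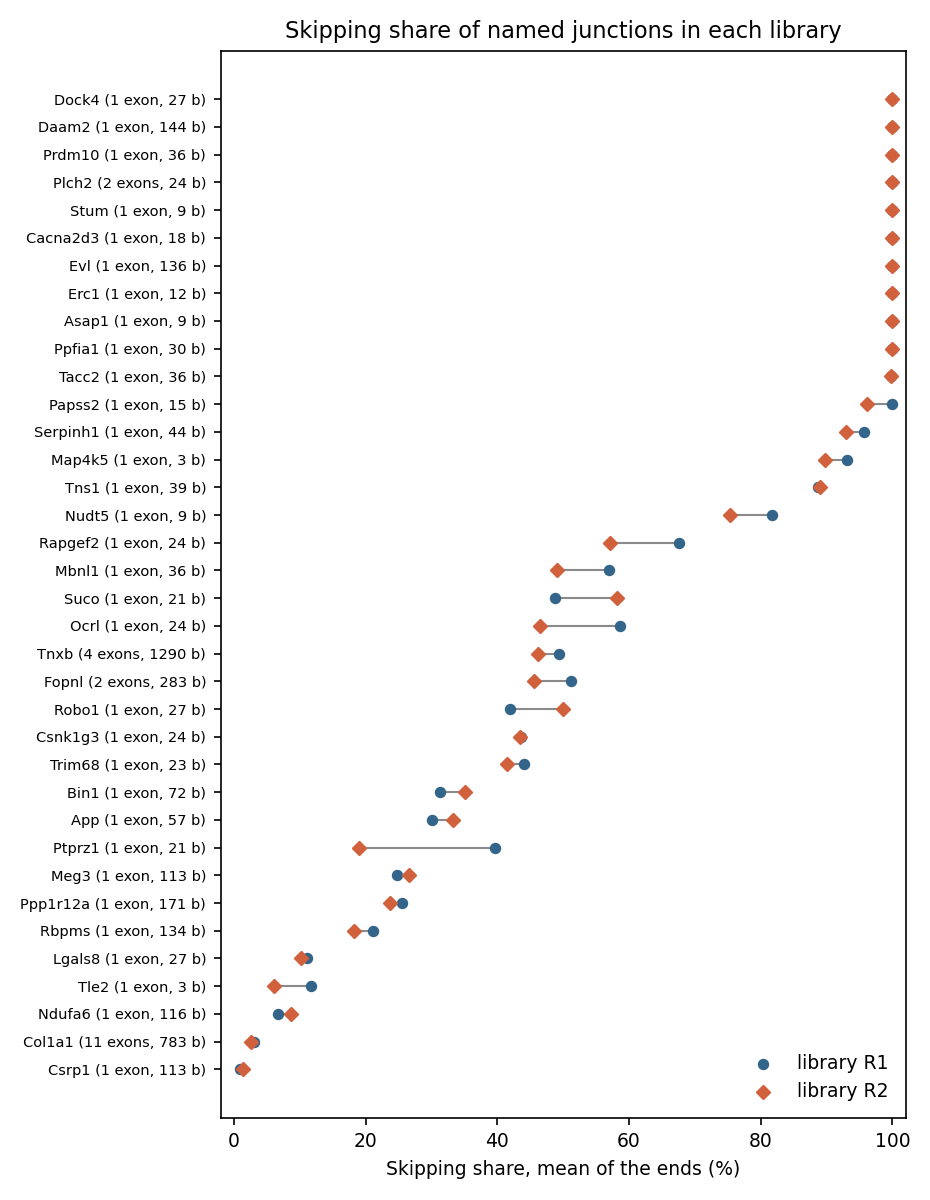
Skipping share (percent, mean of the donor and acceptor ends) of 36 named junctions in library R1 (circles) and library R2 (diamonds), with the number and summed length of the skipped exons in bases. The libraries lie less than 10 points apart for 33 of the 36, and Ptprz1, with 39.6% in R1 and 19.0% in R2, has the widest gap shown.

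Skipping shares as counted were highest for the shortest exons. Whether reads that include such short exons were placed as readily as reads across longer ones was not tested. Of the 1717 skips of 1 coding exon, those of 1 to 15 bases (14 junctions) had a median share of 91.3%, and 10 of them reached 50%. Those of 16 to 27 bases (32 junctions) had a median of 35.3%, with 40.2% in R1 and 31.2% in R2. From 28 to 60 bases (229 junctions) the median was 4.32%, and in the 5 longer bins it lay between 3.32% and 4.71%. Exons of at most 27 bases were 2.35% of the 1956 coding skips and 0.801% of the 116400 coding internal exons of genes of at least 1 TPM, and 1.02% of those in the genes of these skips.

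**Figure D4:**
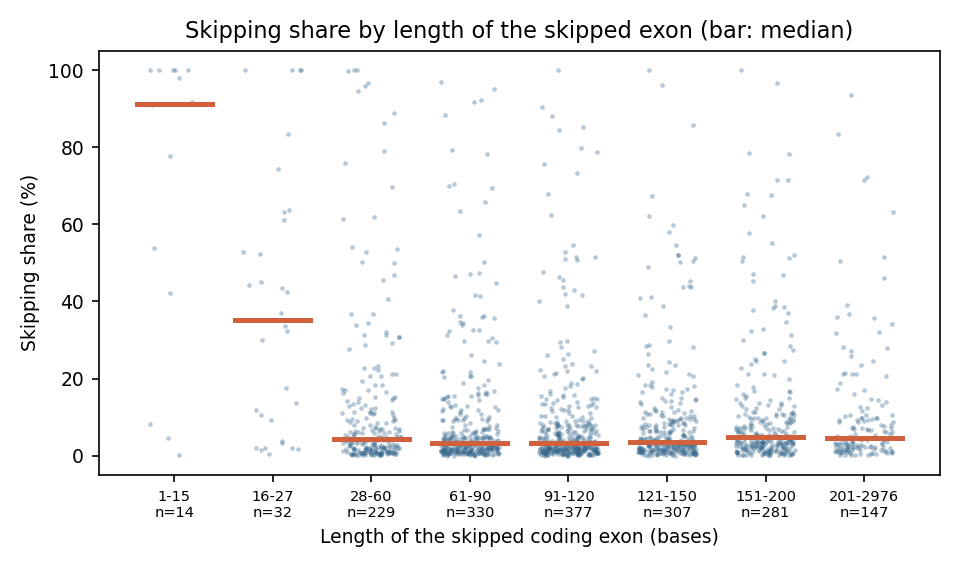
Skipping share (percent) of the 1717 skips of 1 coding exon, by length of the skipped exon in bases, 1 point a junction, spread sideways at random, with the median as a bar and n under each bin. The median is 91.3% for exons of 1 to 15 bases, 35.3% for 16 to 27 bases and under 5% for every longer bin.

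Seen from the exons, a smaller part of the short ones had well-read inclusion junctions. Inclusion junctions of at least 10 reads were found for 540 of the 932 coding internal exons of at most 27 bases (57.9%), against 94.5% of the 115468 longer ones. How well reads across such short exons were placed was not tested. SRRM4 and SRRM3, the regulators known for short neural exons, were low in both replicates, with Srrm4 at 0.295 ± 0.049 TPM and Srrm3 at 0.075 ± 0.035 TPM (SD, n = 2). Ptbp1, a repressor of many neural exons, stood at 110 ± 7.62 TPM. Whether these levels bear on the skipping was not tested.

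The short coding exons with at least 50 skipping reads, which were chosen after their values were seen, had shares from 8.15% in Tle2 to 100%. Papss2, which makes the sulfate donor used on matrix sugars, left out 15 bases with 50 reads in R1 and 62 in R2, a share of 100% and 96.1%. Map4k5, a protein kinase, left out an exon of 3 bases with 93 and 58 reads, a share of 93.1% and 89.7%. The annotated introns of this exon had 0 reads at the donor and 30 at the acceptor. Nudt5, a nucleotide hydrolase, left out 9 bases with 26 and 34 reads, and its ends differed, at 55.6% for the donor and 100% for the acceptor.

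Rapgef2, an activator of Rap proteins, left out the 24-base exon printed above with 51 and 68 reads, a share of 67.6% and 57.2%. Ocrl, an inositol phosphatase, left out 24 bases with 76 and 64 reads, a share of 58.6% and 46.5%. Suco left out 21 bases with 49 and 48 reads, a share of 48.8% and 58.1%. Rapgef2 and Ocrl were higher in R1 and Suco in R2, each by about 10 points.

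Robo1, a receptor of Slit guidance proteins, left out 27 bases with 43 and 32 reads, a share of 42.0% and 50.01%. Csnk1g3, a casein kinase, left out 24 bases with 87 and 48 reads, a share of 43.6% and 43.4%. Trim68, a ubiquitin ligase, left out 23 bases with 120 and 192 reads, a share of 44.1% and 41.4%. The length of the Trim68 exon is not a multiple of 3, whereas those of the other exons of at most 27 bases named here are.

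Ptprz1, a receptor phosphatase, left out 21 bases with 39 reads in R1 and 16 in R2, a share of 39.6% and 19.0%. Lgals8, the lectin galectin 8, left out 27 bases with 52 and 54 reads, a share of 11.1% and 10.1%. Tle2, a transcriptional corepressor, left out 3 bases with 44 and 37 reads, a share of 11.6% and 6.02%. In these last 3 genes most reads at the ends kept the exon.

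The reading frame was kept by a larger part of the skips with a high share, though not in steady order over the range of shares. Over all 1956 coding skips the removed length was a multiple of 3 for 770 (39.4%), against 40.2% of all coding internal exons and 41.9% of those in the same genes. By share the percentage was 46.6% below 1%, 35.0% from 1% to under 5%, 32.3% from 5% to under 10% and 37.7% from 10% to under 25%. It was 49.2% from 25% to under 50%, and 62.3% (76 of 122) at 50% and above. With at least 50 reads as well, 42 of 53 skips (79.2%) at a share of 50% or more kept the frame, beside 81.4% of the 947 annotated skipping introns under the same limits. Without the read limit, the 62.3% of the members stood beside 80.5% of annotated skipping introns. Well-read skips with a share under 5% kept it in 39 of 83 cases (47.0%).

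A single exon was passed over by 2616 of the 3002 skips (87.1%), 2 exons by 283 and 3 by 55. The longest reach, by number of exons, was in collagen genes. Col4a1, of basement membranes, had 40 reads in R1 and 28 in R2 from exon 19 to exon 46, across 26 exons and 2937 bases, with a share of 3.19% and 2.88%. Col1a1, of fibrils, had 191 and 118 reads across 17 exons (1287 bases, share 1.86% and 1.34%) and 317 and 194 reads across 11 exons (783 bases, share 3.01% and 2.56%). Col3a1, also of fibrils, had 112 and 99 reads across 13 exons of 1080 bases, a share of 1.18% and 1.06%.

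Col12a1 differed from these in that the long skip was the major form. Its junction from exon 2 to exon 18 of 66 passed over 15 exons of 3492 bases with 250 reads in R1 and 227 in R2, and the share was 70.1% and 68.6%. The donor gave 82.8% and the acceptor 55.9%, and the authors' assembled models held this intron. Tnxb, tenascin X, had the fifth-longest reach, across 12 exons of 3768 bases with 3 and 9 reads. All of the lengths named in this group are multiples of 3. In Col1a1, Col3a1 and Tnxb each skipped exon is itself a multiple of 3, so any run of them would be as well. How alike in sequence the exons at the ends of these skips are was not compared.

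Among 40 extracellular matrix genes on a list of the tissue's pathways, 18 (45.0%) held an exon skip, against 16.7% of all 13607 genes with at least 2 annotated introns of at least 10 reads. Their 52 skips had a median share of 1.33%, below the 5.12% over all skips, and 4 reached 50%. These genes have more introns to skip across, with a median of 31 against 9. Those with a skip named here ranged from 42.7 TPM (Ltbp3) to 1318 TPM (Col3a1). The median over all genes with at least 2 introns of at least 10 reads was 14.4 TPM. A high level lets a small share reach 10 reads, and what introns or levels add to the count was not tested. Tnc, the matrix protein tenascin C, passed over 5 exons of equal length, 1365 bases together, with 280 reads in R1 and 173 in R2. Its share was 44.9% in R1 and 24.3% in R2, 1 of the wider gaps between the libraries.

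Tnxb had a skip of 4 exons, 1290 bases, with 687 and 639 reads and a share of 49.4% and 46.2%, and another of 2 exons with 105 and 126 reads and a share of 14.3% and 17.8%. The bases at the first of these joins are also found in a transcript annotated before. Col1a2, the second chain of type I collagen, passed over 3 exons with 168 and 94 reads, a share of 2.06% and 1.40%. Col6a3, of microfibrillar collagen VI, passed over a 618-base exon with 44 and 65 reads, a share of 56.0% and 73.4%. With all other junctions at its ends counted, the Col6a3 share was 42.9% in place of 65.1%.

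Other matrix genes of the list included proteins of elastic fibres and fibronectin. Ltbp3, which anchors latent TGF-beta, left out a 120-base exon with 33 and 36 reads, a share of 10.1% and 10.4%. Its 5 skips of 16 to 69 reads had shares from 1.06% to 51.0%. Some of them share an end, and the share of each leaves out the reads of the others. Ltbp4, a relative of Ltbp3, left out 147 bases with 50 and 26 reads, a share of 1.36% and 1.16%. Fbln5, fibulin 5, passed over 2 exons with 34 and 28 reads, a share of 1.66% and 1.32%. Fn1, fibronectin, left out 165 bases with 42 and 16 reads, a share of 0.588% and 0.227%.

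Actin filament, muscle and dense plaque genes held skips in 23 of 45 (51.1%), with 42 skips in all, a median share of 0.442% and 3 at 50% or more. Over all genes 16.7% held a skip, with a median share of 5.12%, and the median number of introns was 22 on this list against 9. List genes with a skip named here ranged from 73.8 TPM (Camk2g) to 8674 TPM (Acta2), beside the median of 14.4 TPM over all genes. What introns or levels add to the count was not tested. The bulk contractile genes were skipped in very few of their many reads. Acta2, smooth muscle alpha-actin, had 28 reads in R1 and 55 in R2 across a 129-base exon, beside 336088 reads that used the annotated intron at the donor and 213012 at the acceptor. Its share was 0.021% in R1 and 0.043% in R2. Tagln, transgelin, had 192 and 260 reads across 103 bases, a share of 0.162% and 0.207%.

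Myl9, the regulatory myosin light chain of smooth muscle, had 80 and 86 reads across 210 bases, a share of 0.179% and 0.253%. Flna, the actin crosslinker filamin A, had 20 and 37 reads across 116 bases, a share of 0.114% and 0.210%. Pdlim3, of the Z-disc and dense bodies, had 18 and 43 reads across 188 bases, a share of 0.177% and 0.355%. In all 5 of these genes R2 had the higher share, and no share was above 0.355% in either library.

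Signalling and membrane-associated genes of the same list had larger shares. Camk2g, a calcium/calmodulin kinase, left out the 69-base exon printed above (chr14:21563871-21567040) with 102 and 117 reads, a share of 33.9% and 38.7%. Atp2b4, a plasma membrane calcium pump, left out 36 bases with 34 and 33 reads, a share of 4.90% and 8.56%. Svil, supervillin, passed over 2 exons of 1035 bases with 32 and 34 reads, a share of 7.86% and 9.56%.

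Tpm1, tropomyosin 1, is known for mutually exclusive exons and had new pairings of other kinds. A junction with ends of different transcripts had 202 reads in R1 and 256 in R2, and another with no whole exon inside had 98 and 169. Against them stood 82768 and 105379 reads on other junctions at the same acceptors. Tpm2, tropomyosin 2, had 25 and 34 reads on a junction of the second kind.

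Splicing regulators held skips in 14 of 46 genes (30.4%), with 27 skips, a median share of 2.08% and a median of 12.5 introns, beside 16.7%, 5.12% and 9 introns over all genes. Those of the 14 with a skip named here ranged from 37.8 TPM (Ptbp2) to 248 TPM (Rbpms), beside the median of 14.4 TPM over all genes. Ptbp2, the neural relative of Ptbp1, skipped the 34-base exon printed above (chr3:119427105-119428983) with 108 reads in R1 and 176 in R2. Its share was 17.3% and 23.5%, so most reads kept the exon, and the gene stood at 37.8 ± 2.34 TPM (SD, n = 2). Clk4, a kinase of splicing factors, left out 67 bases with 38 and 122 reads, a share of 66.7% and 82.6%. The Clk4 donor had 505 reads on all its other junctions, only 51 of them inside the span.

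Rbm5, an RNA-binding regulator of splice site choice, had 51 and 44 reads across 85 bases (share 9.54% and 7.61%) and 20 and 30 reads across 61 bases (share 2.96% and 4.15%). Hnrnpdl, of the hnRNP family, left out 171 bases with 50 and 44 reads, a share of 4.57% and 2.70%. Rbfox2, which promotes many muscle exons, left out 51 bases with 15 and 43 reads, a share of 8.76% and 19.6%. Rbpms had a second skip, of 151 bases, with 75 and 72 reads and a share of 1.96% and 2.22%. Qk, the RNA-binding protein quaking, had 94 and 88 reads on a skip with ends of different transcripts and a share of 93.5% and 94.9%. With all other junctions at its ends counted, 695 of them at the donor, the Qk share was 60.4% in place of 94.2%. U2af1, the 3′ splice site binding factor, had 15 and 40 reads on a junction with no whole exon inside.

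Urothelial genes held skips in 5 of 29 (17.2%) and ribosomal and translation genes in 3 of 20 (15%), both near the 16.7% of all genes. Upk1b, a uroplakin of the apical plaque, had the best-read of these, with 94 reads in R1 and 136 in R2 across an 88-base exon and a share of 0.881% and 1.01%. The tissue label fitted its markers: smooth muscle genes ranged from 1624 TPM (Des) to 8674 TPM (Acta2) and urothelial genes from 364 TPM (Krt5) to 1977 TPM (Upk1a), while Umod and Slc12a1 of kidney, Svs2 of seminal vesicle and Pbsn of prostate were listed at 0 in both replicates. Alb of liver stood at 3.37 TPM in replicate 1 and 0.71 in replicate 2, and Myh4 of skeletal muscle at 0 and 0.01. Host genes of skips had a median of 25 TPM, against 14.4 TPM over all genes with at least 2 introns of at least 10 reads.

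The genes with the most new pairings inside 1 gene, joins between genes left aside, were in part non-coding. Junos and Lrrfip1 had 9 each, Rbpms 8, and 4933407K13Rik, the unnamed gene ENSMUSG00000072566, Gas5, Ltbp4, Meg3 and Tnxb 7 each, followed by Ltbp3 with 6. Lrrfip1, a binder of flightless-1 with many alternative exons, had 9 skips with 11 to 366 reads and shares from 3.25% to 92.0%. Gas5, a host transcript of small nucleolar RNAs, had 7 skips with 10 to 98 reads, all with a share under 2%, the highest being 1.95%. The 7 skips of 4933407K13Rik had only 10 to 22 reads but shares from 63.4% to 75%. They have 5 different starts and 4 different ends, and the 9 of Lrrfip1 have 6 of each. Where skips of a gene share an end, the share of each leaves out the reads of the others.

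The 5 best-read junctions within a gene that hold no whole exon are new partners of alternative ends. Fxyd1, a regulator of the sodium pump, had 812 reads in R1 and 1072 in R2 over a span at chr7:31839390-31839783, beside 7975 reads on other junctions at its acceptor. Heg1, of endothelial junctions, had 466 and 287 reads, with 14 other reads at its donor and 54 at its acceptor. Ltbp3 had 200 and 184 reads, Tacc2 173 and 177, and Trp53i11 143 and 158. In Heg1 and Tacc2 the new pairing had more reads than all other junctions at either of its ends together.

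Later annotation holds part of the skips. Their spliced sequence, 25 bases on each side, was sought in the M21 transcripts, and 2782 of the 3002 had a sequence to compare. It was found in a later transcript of the same gene for 558 skips, with a median share of 7.80%, and not found for 2182, with a median share of 4.08%. A transcript annotated before held the same bases for 35, and a later transcript of another gene for 7. For 96 of the 558 the authors' transcript TPM gave a share of the skipping form over skipping plus including forms, whose median was 7.41% in replicate 1 and 7.77% in replicate 2, beside a median junction share of 9.33%. Over these 96, Spearman's rho between transcript share and junction share was 0.444, as a description, since both come from the same libraries.

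Named examples differed between these measures. The transcript share used only transcripts in the authors' quantification, so skipping transcripts annotated after it were left out. A transcript with either of the inclusion joins counted as an including form. In Erc1 the junction share was 100% in both libraries, and the skipping transcripts held 22.0% in replicate 1 and 18.8% in replicate 2. In Suco the transcript share was 6.04% and 9.61%, beside a junction share of 52.9%. In Tns1 it was 12.2% and 8.87%, beside 88.8%. Of the 96 skips, 16 had a junction share of at least 50%, 12 a transcript share of at least 50%, and 8 both.

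Most joins between different genes that could be compared had the same exon bases across the join as an annotated splice. The likeness of the genes beyond these bases was not measured. Of the 1549, 1184 could be compared with the annotated partner of either splice site, and in 847 (71.5%) all 25 bases of the exon across the join were the same as in the annotated partner. These 847 held 87.9% of the reads on the joins compared. They were 54.7% of all 1549 joins and held 67.9% of the reads on them. A further 183 differed at 1 or 2 bases, 54 at 3 to 5, 7 at 6 to 9, and 93 (7.85%) at 10 or more. For the 847, the join cannot be told from an annotated splice of 1 copy by these bases.

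The best-read joins are shown with 25 bases of each exon, beside the annotated splice of the downstream gene, to let a reader see how little separates them. Capitals mark the bases that differ between the lines of a pair.
Gsdmc2-Gsdmc join: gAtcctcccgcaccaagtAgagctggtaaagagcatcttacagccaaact
Gsdmc annotated: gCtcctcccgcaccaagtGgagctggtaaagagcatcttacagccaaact
Gstm4-Gstm1 join: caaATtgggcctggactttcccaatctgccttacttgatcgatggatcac
Gstm1 annotated: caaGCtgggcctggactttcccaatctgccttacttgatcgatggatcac
Myl12a-Myl12b join: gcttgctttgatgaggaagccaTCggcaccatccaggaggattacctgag
Myl12b annotated: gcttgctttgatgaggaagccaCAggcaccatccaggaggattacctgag
Tuba1a-Tuba1b join, equal to both annotated splices: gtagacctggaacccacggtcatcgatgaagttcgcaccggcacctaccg
Gstm1-Gstm3 join, equal to both annotated splices: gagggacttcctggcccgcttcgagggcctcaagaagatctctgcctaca
The Gsdmc2-Gsdmc and Myl12a-Myl12b joins equal the annotated splice of their upstream gene at every base shown, and the Gstm4-Gstm1 join differs from that of Gstm4 at 3 bases.

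Gsdmc2-Gsdmc, of the pore-forming gasdermin C family, had the most reads of all new pairings, 4529 in R1 and 9051 in R2 at chr15:63608472-63657220. Its donor had 20449 reads on annotated introns of Gsdmc2 inside the span, and its acceptor 22 on those of Gsdmc. Gstm1-Gstm3, of the mu glutathione transferases, had 4440 and 7312 reads at chr3:107767215-107817670, and Gstm4-Gstm1 5549 and 5666 at chr3:107819519-107846812. Myl12a-Myl12b, of the non-muscle myosin light chains, had 3788 and 6600 at chr17:71323837-71345449, and Tuba1a-Tuba1b, of the alpha-tubulins, 4521 and 5540 at chr15:98763272-98781899. R2 had the more reads in all 5, by little in Gstm4-Gstm1 and by the most in Gsdmc2-Gsdmc, but R2 also had more junction reads in all. The share was higher in R1 for Gstm4-Gstm1 (43.3% against 37.4% in R2) and Gsdmc2-Gsdmc (70.2% against 69.7%). It was higher in R2 for the others.

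By gene pair, over all 1549 joins, Gstm1-Gstm3 led with 22362 reads over 6 joins, followed by Gsdmc2-Gsdmc with 19459 over 4 and the complement protease pair C1s2-C1s1 with 17899 over 9. C4a-C4b, of complement C4, had the most separate joins among the leading 15 pairs, 33 with 9261 reads. Tnxb-Tnxa, Srp54c-Srp54a and the small proline-rich protein pair Sprr2a2/Sprr2a1-Sprr2a3, with 8387 reads on 1 join that could not be compared, were among these 15 as well. All are named as uncertain, since reads that match more than 1 copy could be split between them.

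**Figure D5:**
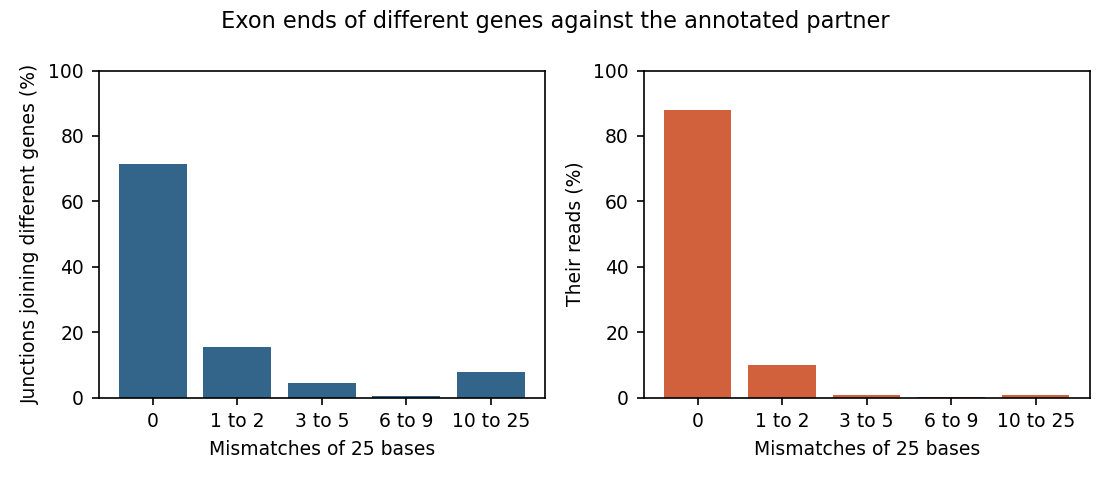
The 1184 comparable joins between different genes (left, percent of joins; right, percent of their reads) by the number of mismatches among the 25 exon bases set against the annotated partner, both libraries together. Joins with 0 mismatches make up 71.5% of the joins and 87.9% of the reads, and joins with 10 or more make up 7.85% and 0.975%.

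Read counts repeated exactly between some of these joins. Among joins between genes of at least 50 reads, 186 of 724 (25.7%) had the same number of reads in R1, and the same number in R2, as another junction at a shared end. The same was true of 6 of 523 skips (1.15%) and of 182 of 122446 annotated introns (0.149%). For example, a minor join of Gsdmc3-Gsdmc2 (chr15:63659609-63695649) and one of Gsdmc4-Gsdmc2 (chr15:63659609-63729271), which share a splice site of Gsdmc2, each had 47 reads in R1 and 54 in R2. How reads with several equally good positions were counted is not given in the sources used here.

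The 93 joins with 10 or more mismatches had a median of 19 reads, and those named here were chosen after their values were seen. Some pair genes of the same family: Gsdmc3-Gsdmc2 and Gsdmc4-Gsdmc2 had 101 reads each, Cyp2d26-Cyp2d22 had 72 and Mfap1a-Mfap1b had 46. Gm8206-Gm3248 had 122. Mismatches were counted against annotated splices only, and whether such joins are unannotated splices within a single copy was not tested. The Cyp2d26-Cyp2d22 bases also lie in a later transcript of these genes, and Cyp2d26 stood at 0.035 TPM. Gsdmc4 stood at 0.565 TPM, and the 25 bases before both Gsdmc joins are the same in Gsdmc2, Gsdmc3 and Gsdmc4. Pcp4l1-Sdhc, which joins a relative of a Purkinje cell protein gene to a subunit of respiratory complex II, had 23 reads in R1 and 35 in R2 and a share of 0.711% and 0.854%. Rbpms2-Oaz2 had 26 and 20 reads, and Rnf139-Ndufb9 26 and 19. Coro7-Pam16, between a coronin and a mitochondrial import gene, had 22 and 15 reads at chr16:4618004-4627609 and a share of 24.2% and 9.40%. Its join and the annotated Coro7 splice are printed to show exon ends that are unlike, with differing bases in capitals.
Coro7-Pam16 join: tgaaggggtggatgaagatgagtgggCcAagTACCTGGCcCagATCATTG
Coro7 annotated: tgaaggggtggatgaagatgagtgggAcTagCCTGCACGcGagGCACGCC
The bases after the join differ at 18 positions.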

How the data were processed

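The authors deposited junction read counts on mm9, listed per library as R1 and R2 with a reproducibility score and a column left undescribed and unused. Mm9 gene models were deposited with their coordinates. Gene and transcript TPM, expected counts and an isoform percent (not used) on mm10 with GENCODE M4 were also deposited, per the file headers. No source used here names the aligner or its handling of multiply placed reads. The planned fit assumed pooled reads. R1 and R2 were used where found. Columns of other samples numbered 0.

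Members, gene lists and tests were chosen with earlier results of these data known. Python 3.11.15, numpy 2.4.6, pandas 2.3.3, scipy 1.17.1 and matplotlib 3.10.9 were used. Introns were taken from consecutive exons of 95495 Ensembl transcripts (243303 introns). An exon counts as skipped when it lies wholly between the junction's ends in a transcript that uses both. Sequences came from GENCODE M21 transcripts of the same structure (78974), by transcript ID and not by coordinate. 4228 of 4904 junctions had one. Later annotation was sought by sequence, not by intron length as first planned. A skipping share is a percent computed here. The classing code was run on simulated gene models, and 200 of 200 skips were classed as they were built. This checks the code only, since the models held no aligned reads, alternative transcripts, very short exons or gene copies.

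Named skips were the 15 with most reads, the 10 with the highest share among those of at least 50 reads, the 5 across most exons, the 5 best-read junctions within a gene with no whole exon inside, the 5 best-read joins between genes, the 10 genes with most members and list genes with at least 50 reads. Symbols were found for 3094 of 3237 gene IDs.

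A result for 1 named junction gene is not reported here.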

Additional observations from a re-analysis of the deposited data

How the results depend on the processing

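The number of new pairings followed the read minimum: 8711 at 5 reads, 2794 at 20 and 1334 at 50, against 4904 at 10. Exon-skipping junctions of both kinds numbered 6349, 1548 and 557, against 3175. With 10 reads asked of 1 library alone, an alternative chosen after seeing the data, the counts were 2671 to 3180 and 1490 to 1848. Matching by strand kept both counts, as did, within 1.5 times, asking 5 reads in each library or leaving out sequences held by transcripts annotated before, both chosen later. The reproducibility limit and counting assembled introns as annotated, tried on all new pairings, also stayed within 1.5 times. The median skipping share of 5.12% was 4.90% with all other junctions at the ends, 3.91% with the lower end and 6.11% with the higher end, and 4.96% to 5.24% in 1 library. Frame was kept by 51.6% of coding skips of at least 50 reads and by 79.2% of those also at a share of 50% or more (chosen later), against 39.4%. A reproducibility value of at most 0.05, also chosen later, held for 98.2%. The median transcript share of 8.66% over the means became 7.41% to 7.77% in 1 replicate. The median host gene level stayed between 24.5 and 25.9 TPM. Of 207 alternatives for the 69 named skips that use both libraries, 140 moved the share by no more than 1 SD between the libraries. No paired analysis was possible because there is 1 group and nothing to pair. With 10 reads a share has a wide counting error, and with 1 group of 2 libraries no difference was tested.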
